A study of Mus musculus with 122 samples.

Results

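The comparison described here set alveolar macrophages of Lip mutant mice that had been sorted as CD11b low against alveolar macrophages of their Lip wild-type controls, using all genes of the deposited RNA count table. Its 7 libraries, 4 from Lip CD11b low cells and 3 from Lip WT cells, were chosen by their labels out of the 122 samples of the series. Lip CD11b low cells came from adult mice homozygous for the allele C/EBPtm1.2Acle (Lip/Lip), and Lip WT cells from adult +/+ mice of the same mixed background. Both were obtained by bronchoalveolar lavage and sorted by flow cytometry. The control label carries no CD11b gate, so genotype and gate differ together and cannot be told apart. Beside these libraries stood 4 of Lip CD11b high cells from Lip/Lip mice, 4 of CD11b low cells from mice homozygous for the Cebpb null allele C/EBPb tm1Pfj (Cebpb KO CD11b low), 4 of their +/+ controls (Cebpb WT), and a separate set of RNA matched to chromatin libraries, with 4 Lip libraries not split by CD11b and 4 of their own Lip WT controls. Sex and animal of origin were not used here, and where replicates are not from separate animals the p-values measure technical spread only.

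C/EBPβ is a leucine-zipper transcription factor. A single mRNA gives the activating forms LAP* and LAP and, from a start codon further downstream, the short form LIP, which keeps the DNA-binding and zipper domains but lacks the activation domain; the Lip allele is known to make LIP only. Alveolar macrophages clear surfactant lipid from the airspace, depend on GM-CSF from the lung epithelium and on the nuclear receptor PPARγ, and carry Siglec-F and CD11c with little CD11b. Full loss of C/EBPβ, by contrast with the Lip allele, removes LIP as well as LAP.

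Lip CD11b low libraries held 1219622 to 2462246 counts and Lip WT libraries 951092 to 1712004 counts, on 11092 to 11614 and 10717 to 11213 detected genes. Mitochondrial transcripts took 1.04% to 1.32% of counts in Lip CD11b low libraries and 1.03% to 1.15% in Lip WT libraries. Levels below are given as CPM, a gene's counts over the library's scaled total, with scaling done jointly over the libraries of the first 5 groups. The call rule was an adjusted p below 0.05 in edgeR's quasi-likelihood test, and a difference written as a value ± SE is a log2 fold change. The protocol counts the 3′ ends of polyadenylated RNA, so levels were not compared between genes. In bulk RNA, fewer cells of a type and less RNA per cell cannot be told apart.

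Cebpb itself, at chr2:167688915-167690432 (GRCm38), was transcribed in every Lip library. It stood at 832, 885, 1032 and 1007 CPM in Lip CD11b low libraries, against 491, 688 and 614 CPM in Lip WT libraries. The groups did not overlap, and the log2 fold change of 0.63 ± 0.11 (SE) passed the test (adjusted p = 9.57e-06). In Cebpb KO CD11b low libraries the gene averaged 43.3 ± 11.7 CPM, against 947 ± 449.9 CPM in Cebpb WT libraries (SD, n = 4 each), so the same count table separated the null allele from its control. The Lip allele alters which protein is translated and leaves the 3′ end in place, so this count gives no check of the Lip genotype. Cebpa, the family member that drives early myeloid differentiation, had a log2 fold change of 0.07 ± 0.13 (adjusted p = 0.727), and Cebpd, an acute-phase member, -0.20 ± 0.17 (adjusted p = 0.437). Of the 6 C/EBP family genes tested, Cebpb was the only one called, against 26% of all genes tested. Without Lip CD11b low replicate 1, the family had 1 gene higher and 1 lower.

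A broad set of genes changed. Of 8912 genes tested, 2318 (26%) were called, 1244 higher (14%) and 1074 lower (12.1%) in Lip CD11b low than in Lip WT cells. The largest changes lay on the side of the rises: 118 genes were over 8-fold higher in Lip CD11b low cells and 30 over 8-fold lower. Groups did not overlap for 2773 genes (31.1% of those tested). The median log2 fold change over all genes tested was 0.000331.

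The genes with the largest rises were close to silent in Lip WT cells. Cyp4a12b, a fatty acid omega-hydroxylase, had 104, 76.3, 82.6 and 99.7 CPM in Lip CD11b low libraries, against 0 in every Lip WT library. Pitx1, a homeodomain transcription factor, had 73.3, 125, 63.3 and 64.9 CPM in Lip CD11b low libraries, against 0 in every Lip WT library. Against the limit of 3 counts over the Lip WT group (0.664 CPM), Cyp4a12b was at least 138-fold and Pitx1 at least 118-fold higher. Stac, an adaptor protein, was at least 44.7-fold higher; Pmp22, a membrane protein of myelin, at least 39.8-fold; and Npy, the neuropeptide Y, at least 34.9-fold, each with 0 counts in Lip WT. Cyp4a12a, near-identical in sequence to Cyp4a12b so that the division of reads between them is uncertain, had 162, 115, 93.8 and 107 CPM in Lip CD11b low libraries, against 1.01, 0 and 0.554 CPM in Lip WT libraries, a ratio of 261 with a 95% counting interval of 72.1 to 2161. Fbp1, the gluconeogenic fructose bisphosphatase, stood at a ratio of 217 (59.8 to 1795), and Vcam1, an adhesion ligand of integrin α4, at 195 (34.7 to 7724). These intervals cover counting error only. All 8 of these genes had 3 counts or fewer in the whole Lip WT group. The naming of the 10 largest rises and falls required groups that do not overlap, so their separation is fixed by the choice.

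Mfge8, the secreted bridge between apoptotic cells and phagocyte integrins, rose from a low control level. It reached 1833, 1599, 1983 and 1793 CPM in Lip CD11b low libraries, against 15.2, 11.6 and 7.75 CPM in Lip WT libraries. The log2 fold change was 7.35 ± 0.17 (adjusted p = 1.98e-32), a 163-fold difference. Fstl1, a secreted glycoprotein, had 660.0, 339, 309 and 408 CPM in Lip CD11b low libraries, against 2.03, 4.05 and 1.66 CPM in Lip WT libraries (7.28 ± 0.60, adjusted p = 0.000388).

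**Figure D1:**
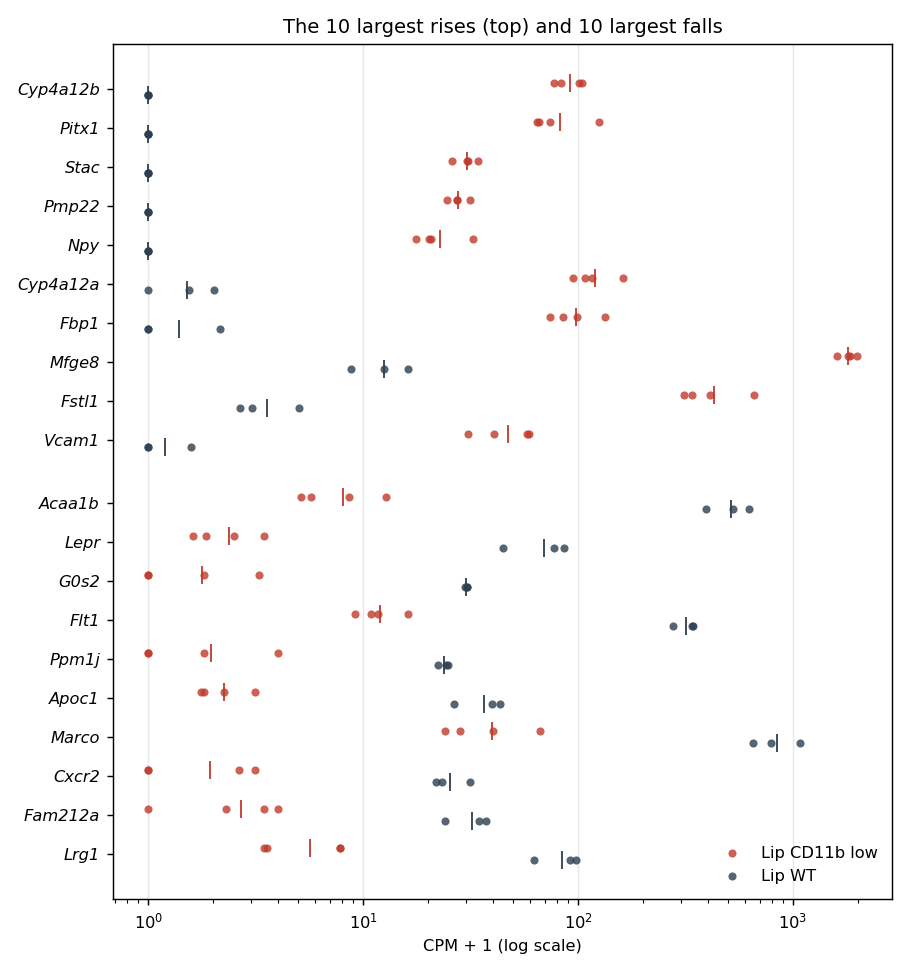
CPM + 1 on a log axis of the 10 largest rises and the 10 largest falls in each of the 4 Lip CD11b low and 3 Lip WT libraries, 1 point a library. The genes were chosen for groups that do not overlap, and 5 of the rises are at 0 in every Lip WT library.

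The largest falls included genes of lipid handling and receptors. Acaa1b, a peroxisomal thiolase, was at 4.12, 7.56, 11.8 and 4.73 CPM in Lip CD11b low libraries, against 524, 393 and 624 CPM in Lip WT libraries (-6.20 ± 0.23, adjusted p = 1.77e-13). Lepr, the leptin receptor, was at 2.47, 1.51, 0.621 and 0.86 CPM in Lip CD11b low libraries, against 76, 44 and 84.7 CPM in Lip WT libraries (-5.70 ± 0.34, adjusted p = 1.17e-15). G0s2, an inhibitor of triglyceride lipase, changed by -5.40 ± 0.45, and Apoc1, an apolipoprotein of the Apoe cluster, by -4.65 ± 0.34. Among receptors, Flt1, a receptor for VEGF, had 10.7, 15.1, 9.94 and 8.17 CPM in Lip CD11b low libraries, against 276, 343 and 336 CPM in Lip WT libraries (-4.92 ± 0.16, adjusted p = 2.37e-27). Marco, a scavenger receptor for particles and bacteria, had 23.1, 65.8, 39.1 and 27.1 CPM in Lip CD11b low libraries, against 1074, 649.6 and 789 CPM in Lip WT libraries (-4.48 ± 0.38, adjusted p = 0.000451). Other receptors and secreted proteins fell too. Cxcr2, a chemokine receptor, fell by 4.39 on the log2 scale, Lrg1, a secreted leucine-rich glycoprotein, by 4.17, Ppm1j, a protein phosphatase, by 4.76 and Fam212a by 4.25.

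Identity genes of the alveolar macrophage moved in both directions. Of the 27 tested from a list of 28, 13 were lower and 8 higher in Lip CD11b low cells, against 12.1% and 14% of all genes tested, and the list's median log2 fold change was -0.17. Siglecf, the lectin used to define the cell type, was present in every mutant library but lower, at 128, 121, 145 and 122 CPM in Lip CD11b low libraries, against 239, 259 and 313 CPM in Lip WT libraries (-1.09 ± 0.11, adjusted p = 1.52e-10). Krt79, a keratin used as an alveolar macrophage marker, was at 43.7, 51.4, 32.9 and 27.9 CPM in Lip CD11b low libraries, against 706, 595 and 663 CPM in Lip WT libraries (-4.13 ± 0.14, adjusted p = 1.02e-22). Both stayed well above 0 in the mutants. Ear1, an eosinophil-associated ribonuclease with near-identical copies in the genome, fell by 3.98 on the log2 scale, whereas its family member Ear6 rose by 2.94; reads shared between copies make the split uncertain. Chil3, an abundant chitinase-like lectin, had 7957, 9945, 6152 and 6661 CPM in Lip CD11b low libraries, against 19779, 17435 and 20446 CPM in Lip WT libraries (-1.34 ± 0.14, adjusted p = 2.47e-07). Itgax, which encodes CD11c, was higher, at 1228, 1069, 1145 and 992 CPM in Lip CD11b low libraries, against 503, 550.1 and 542 CPM in Lip WT libraries (1.04 ± 0.10, adjusted p = 4.15e-11). Car4, a membrane carbonic anhydrase, had 736, 893, 841 and 752 CPM in Lip CD11b low libraries, against 695, 603 and 532 CPM in Lip WT libraries, a log2 fold change of 0.39 ± 0.11 (adjusted p = 0.00494). The call was lost without Lip WT replicate 3 (adjusted p = 0.0938) and in the fit of 3 Lip groups (adjusted p = 0.152).

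Pparg, the nuclear receptor that drives lipid metabolism genes in these cells, was lower in every mutant library. It had 124, 104, 126 and 110.0 CPM in Lip CD11b low libraries, against 217, 299 and 264 CPM in Lip WT libraries (-1.19 ± 0.12, adjusted p = 2.79e-11), and the groups did not overlap. Its isoforms share their 3′ end, so these counts do not separate them. Among its partners, Rxra rose by 0.42 on the log2 scale and the coactivator Ncoa1 fell by 0.94. Of 13 PPAR and RXR receptors and cofactors tested, 3 were higher and 3 lower, against 14% and 12.1% of all genes.

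Genes of lipid uptake and storage, many of them PPARγ targets, were divided. Of 26 tested, 9 were higher and 9 lower, against 14% and 12.1% of all genes. The higher count was 5 with the replicate block, and 6 without Lip CD11b low replicate 4 or Lip WT replicate 2. The lower count stayed at 8 to 10 under all alternatives. Cidec, a coat protein of lipid droplets, had 70.9, 95.2, 54 and 61.9 CPM in Lip CD11b low libraries, against 511, 496 and 555 CPM in Lip WT libraries (-2.92 ± 0.13, adjusted p = 1.33e-19). The fatty acid carriers Fabp1 (-2.26 ± 0.12) and Fabp4 (-2.22 ± 0.18) and the fatty acid transporter Cd36 (-1.05 ± 0.14) also fell. Msr1, a scavenger receptor for modified lipoproteins, rose (1.76 ± 0.17), as did Acsl3, an acyl-CoA synthetase that acts in droplet formation (2.13 ± 0.32). Among 33 fatty acid oxidation genes, 7 were higher and 10 lower, with 4 higher without Lip CD11b low replicate 2 or Lip WT replicate 2; the extremes were the Cyp4a12 pair and Acaa1b described above.

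Genes of cholesterol sensing and transport moved individually. Nr1h3, the oxysterol-sensing receptor LXRα, had 17.3, 23.4, 16.1 and 21.5 CPM in Lip CD11b low libraries, against 56.7, 59 and 74.8 CPM in Lip WT libraries (-1.71 ± 0.18, adjusted p = 1.81e-10). Pltp, a phospholipid transfer protein and LXR target, had 75.8, 77.1, 83.2 and 65.8 CPM in Lip CD11b low libraries, against 240.2, 213 and 253 CPM in Lip WT libraries (-1.66 ± 0.12, adjusted p = 2.84e-15). Ch25h, the enzyme that makes an oxysterol ligand from cholesterol, went the other way, with 382, 429, 412 and 356 CPM in Lip CD11b low libraries, against 82.1, 85 and 64.2 CPM in Lip WT libraries (2.35 ± 0.13, adjusted p = 4.16e-19). All 3 had separate groups, as had 31.1% of all genes tested. The efflux pumps Abca1 (0.45 ± 0.22, adjusted p = 0.13) and Abcg1 (-0.24 ± 0.10, adjusted p = 0.0867) did not pass the test. Of 19 efflux and LXR genes tested, 4 were higher and 4 lower, and of 21 cholesterol synthesis genes 2 were higher and 2 lower. Over all genes tested, 14% were higher and 12.1% lower. The cholesterol synthesis counts ranged from 1 to 3 higher and from 1 to 4 lower under the alternatives. Apoe, a lipid carrier and LXR target, depended on a single library: it was at 27.2, 52.9, 27.3 and 171 CPM in Lip CD11b low libraries, against 132, 179 and 114 CPM in Lip WT libraries (-0.92 ± 0.71, adjusted p = 0.434), and without Lip CD11b low replicate 4 the log2 fold change was -2.01 (adjusted p = 1.05e-06).

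Binding of C/EBPβ in wild-type cells was available for the same gene set. The authors' peak lists came from alveolar macrophages of C57BL/6 mice, assayed by chromatin immunoprecipitation with transposon-based library making, and held 27105 and 22558 peaks in the 2 samples, with 18752 regions present in both. A region lay within 10 kb of 66.9% of the genes higher in Lip CD11b low cells (830 of 1241) and of 74.1% of the lower ones (795 of 1073), against 63.1% of all genes tested (5611 of 8890). Called genes were also more highly expressed, with median levels of 55.6 CPM for higher genes, 48.9 CPM for lower genes and 34.6 CPM for all tested. A region inside a gene was counted too, and median gene length was 21.3 kb for higher, 25.3 kb for lower and 23.7 kb for all tested genes. The part of level and of length in these shares was not tested. Of the 10 largest falls 9 had such a region, Lrg1 being the exception. Of the 10 largest rises 4 had a region within 10 kb, and the nearest one lay 354 kb from Cyp4a12b and 124 kb from Mfge8.

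Among the named genes, a binding region of both samples covered a promoter that also held the C/EBP pattern TTGCNNAA, on either strand, at Pparg, Lepr, Cidec, Slc7a11, Ear1, Clec4e, Ndufa4, Mmp8 and Rnase2a. The first 4 are shown, a selection made after their values were seen. These are the nuclear receptor and lipid genes described above and the cystine transporter, the only one of the 4 that rose in Lip CD11b low cells. The sequences are RefSeq windows (GRCm38.p6) of 250 bases before to 50 after a transcript start. They are read 5′ to 3′ on the gene's strand, with matches to the pattern in capitals. Pparg has 3 starts in the table, of which the most downstream is shown; isoform 2, named in the study's title, is known to start downstream of isoform 1. The other 2 starts had neither a region nor a match.
Pparg, chr6:115421816-115422115, plus strand: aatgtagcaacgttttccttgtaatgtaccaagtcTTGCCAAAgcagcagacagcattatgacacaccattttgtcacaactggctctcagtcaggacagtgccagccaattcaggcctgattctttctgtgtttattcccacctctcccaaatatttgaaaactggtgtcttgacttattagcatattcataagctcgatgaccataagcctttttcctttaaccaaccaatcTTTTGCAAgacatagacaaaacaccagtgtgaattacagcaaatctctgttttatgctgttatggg
Lepr, chr4:101717656-101717955, plus strand: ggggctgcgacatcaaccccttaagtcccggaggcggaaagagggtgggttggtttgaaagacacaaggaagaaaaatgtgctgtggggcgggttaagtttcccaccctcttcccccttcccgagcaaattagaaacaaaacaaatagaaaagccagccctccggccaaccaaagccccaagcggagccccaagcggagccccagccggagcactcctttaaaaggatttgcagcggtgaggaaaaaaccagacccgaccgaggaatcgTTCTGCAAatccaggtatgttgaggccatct
Cidec, chr6:113434715-113435014, minus strand: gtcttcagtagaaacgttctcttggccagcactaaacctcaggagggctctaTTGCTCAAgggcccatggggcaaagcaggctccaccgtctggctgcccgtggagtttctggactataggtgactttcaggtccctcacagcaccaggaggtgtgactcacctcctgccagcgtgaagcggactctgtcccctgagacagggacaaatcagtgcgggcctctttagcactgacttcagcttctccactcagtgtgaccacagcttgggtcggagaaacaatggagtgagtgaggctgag
Slc7a11, chr3:50443564-50443863, minus strand: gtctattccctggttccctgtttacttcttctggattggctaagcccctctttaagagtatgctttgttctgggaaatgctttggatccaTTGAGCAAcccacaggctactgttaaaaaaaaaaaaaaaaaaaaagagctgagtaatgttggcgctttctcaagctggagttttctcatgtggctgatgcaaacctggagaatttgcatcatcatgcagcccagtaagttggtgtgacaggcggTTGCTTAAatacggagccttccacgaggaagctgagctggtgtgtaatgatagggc

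The authors' fold enrichment of the peak over the shown Pparg promoter was 40.2 and 53.4 in ChIP samples 1 and 2, and over that of Slc7a11 38.3 and 33.7. It was 14.8 and 16.6 at Cidec and 9.37 and 7.40 at Lepr. Pparg, Cidec and Lepr fell and Slc7a11, the cystine transporter, rose: it had 28, 30.2, 33.5 and 29.7 CPM in Lip CD11b low libraries, against 3.04, 2.31 and 3.88 CPM in Lip WT libraries (3.25 ± 0.31, adjusted p = 1.23e-11). The pattern is common, present in 16.9% of the 2081 promoters of tested genes with a peak, in 10.8% of all 32851 promoters and 8.49% of the 9345 promoters of tested genes, in 8.99% of promoters of higher genes and in 10.1% of those of lower genes. A match is a string in this window and no evidence of a site.

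Genes of antigen presentation by MHC class II rose together. All 10 tested from a list of 13 were higher in Lip CD11b low cells, against 14% of all genes, with a median log2 fold change of 3.61. H2-Ab1, which encodes a β chain, had 5366, 4195, 5940.5 and 7208 CPM in Lip CD11b low libraries, against 51.7, 76.4 and 70.9 CPM in Lip WT libraries (6.38 ± 0.20, adjusted p = 1.99e-14). Cd74, the invariant chain, had 8689, 5916, 8779 and 9263 CPM in Lip CD11b low libraries, against 105, 137 and 146 CPM in Lip WT libraries (5.95 ± 0.16, adjusted p = 1.49e-20). No library of either group approached the other, and H2-Aa (6.24 ± 0.26) and H2-Eb1 (6.87 ± 0.33) also rose. Ciita, the coactivator that switches on this gene family, rose by 4.10 on the log2 scale and the co-stimulatory ligand Cd86 by 2.03. Reads shared among these related H2 genes make the share of each uncertain.

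Chemokines split by gene. Ccl17, a ligand of the chemokine receptor CCR4, had 1599, 1117, 1248 and 1522 CPM in Lip CD11b low libraries, against 17.2, 17.4 and 16.1 CPM in Lip WT libraries (6.33 ± 0.17, adjusted p = 7.72e-30). Cxcl16 (3.83 ± 0.23), a membrane-bound chemokine, and Cxcl3 (3.44 ± 0.44), a neutrophil attractant, also rose, while the cytokines Il1b and Tnf fell by 2.33 and 1.78 on the log2 scale. Of 16 inflammatory genes tested, 5 were higher and 4 lower, against 14% and 12.1% of all genes. No gene of 18 interferon-response genes tested by edgeR was called in either direction, none of them had an unadjusted p under 0.05, and DESeq2 called none. The list's summed level was 446, 460, 437 and 1264 CPM in Lip CD11b low libraries, against 548, 506 and 588 CPM in Lip WT libraries. Replicate 4 of the mutants stood apart, and without it 14 genes could be tested, of which 3 were lower. Without Lip WT replicate 3 a single gene was higher, and without the filter on low counts 3 of 30 were higher and 1 lower.

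Lysosomal genes rose and cell-cycle genes fell. Of 31 genes of the lysosome and of surfactant breakdown tested, 20 were higher and 0 lower, against 14% and 12.1% of all genes, with a median log2 fold change of 0.48. Ctss, a cathepsin of antigen processing, had 10686, 8105, 9823 and 11524 CPM in Lip CD11b low libraries, against 2724, 3147 and 2856 CPM in Lip WT libraries (1.77 ± 0.11, adjusted p = 7.5e-17). The sphingomyelinase Smpd1 (1.48 ± 0.15) and cathepsin D, encoded by Ctsd (0.96 ± 0.11), rose less. Of 33 cell-cycle genes tested, 27 were lower and 0 higher, against 12.1% of all genes lower, with a median of -1.24. Mki67, a marker of cycling cells, had 75.8, 52.2, 32.9 and 42.6 CPM in Lip CD11b low libraries, against 131, 139 and 133 CPM in Lip WT libraries (-1.46 ± 0.18, adjusted p = 3.82e-06). Mcm5, a subunit of the replicative helicase, had 7.42, 10.6, 13 and 3.87 CPM in Lip CD11b low libraries, against 30.4, 30.7 and 31 CPM in Lip WT libraries (-1.89 ± 0.27, adjusted p = 3.19e-07). Both genes had separate groups, as had 31.1% of all genes tested.

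Genes that report handling stress fell as well. Of 12 genes of the stress and dissociation response tested, 8 were lower and 0 higher, against 12.1% and 14% of all genes. Fos, an immediate-early transcription factor, had 179.6, 258, 131 and 176 CPM in Lip CD11b low libraries, against 777, 592 and 510.0 CPM in Lip WT libraries (-1.77 ± 0.26, adjusted p = 0.00281), and Hspa1a, a heat-shock chaperone with a near-identical copy, fell by 3.78 on the log2 scale. The part of these genes in the other results was not tested. Of 15 ATF4 and unfolded-protein genes, 2 were higher and 7 lower, among them Psat1, an enzyme of serine synthesis (-3.86 ± 0.52), and Xbp1, a transcription factor of the secretory pathway (-1.08 ± 0.10). Of 15 antioxidant genes, 3 were higher and 6 lower (1 higher without Lip CD11b low replicate 2, 3 or 4 or Lip WT replicate 2), the largest change being that of Slc7a11.

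Further lists covered signalling, metabolism and receptors, beside backgrounds of 14% higher and 12.1% lower. The GM-CSF receptor subunits Csf2ra (0.03 ± 0.11) and Csf2rb (0.17 ± 0.10) did not pass the test, with adjusted p of 0.897 and 0.202, while Socs1, a feedback inhibitor of cytokine signalling, rose by 2.75 on the log2 scale; of 15 genes of this pathway 4 were higher and 1 lower. Without Lip CD11b low replicate 3 or 4 only 1 was higher and 0 lower, and without Lip WT replicate 2 the higher ones numbered 2. Of 17 genes of lipid-associated macrophages 8 were higher and 3 lower, led by Mmp12, a macrophage elastase, with 148, 102, 159.6 and 204 CPM in Lip CD11b low libraries, against 3.04, 1.74 and 0.554 CPM in Lip WT libraries (6.57 ± 0.40, adjusted p = 8.69e-09). In the same list Trem2, a lipid receptor, fell by 0.33. Of 16 glycolysis genes 5 were higher and 1 lower, of 17 pattern recognition and scavenger receptors 2 higher and 5 lower, and of 13 Fc receptors and integrins 6 higher and 2 lower. Of 38 respiratory chain genes 4 were higher and 7 lower, and the lower count was 3 or 4 without Lip CD11b low replicate 3 or 4 or any 1 Lip WT library.

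**Figure D2:**
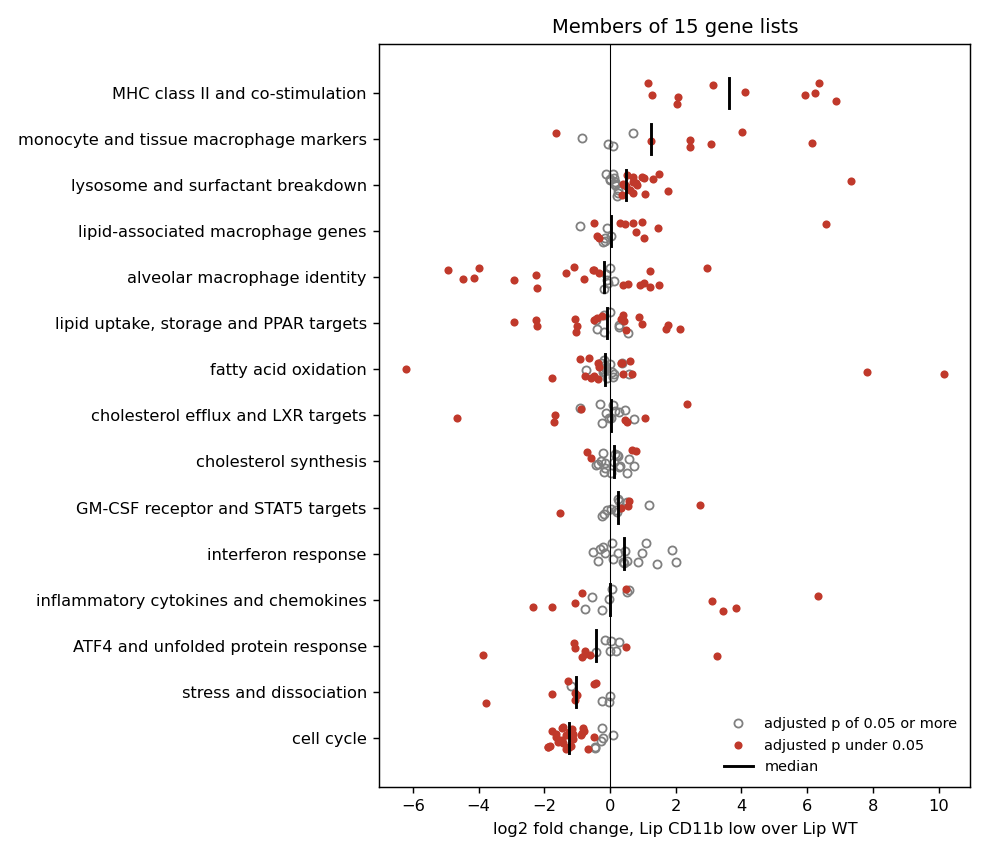
Log2 fold change of Lip CD11b low over Lip WT for the tested members of 15 gene lists, 1 point a gene, coloured by whether it was called. The 10 MHC class II genes all lie above 0 and 27 of the 33 cell-cycle genes are called below it; the fitted value of a gene at 0 in Lip WT, such as Cyp4a12b, depends on the prior count.

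Markers of other cells differed between the groups. Over all genes tested, 14% were higher and 12.1% lower in Lip CD11b low cells. Monocyte and tissue macrophage markers were higher for 6 of 11 tested and lower for 1. The list of 22 summed to 1415 to 1742 CPM in Lip CD11b low libraries, against 1022 to 1165 CPM in Lip WT libraries, where Ly6c2, Plac8, Folr2, Lyve1, Timd4 and Cd163 were at 0. C1qa, a complement subunit, had 24.7, 22.7, 29.2 and 63.2 CPM in Lip CD11b low libraries, against 0, 1.16 and 0 CPM in Lip WT libraries, a ratio of 88.7 (95% counting interval 24.3 to 736). The number of higher genes in this list was 3 without Lip CD11b low replicate 4, 4 without Lip CD11b low replicate 1 or 3 or Lip WT replicate 2 or 3, and C1qa lost its call without Lip WT replicate 2 (adjusted p = 0.0581). Itgam, which encodes CD11b, was too low to be tested, at 3.3, 3.02, 5.59 and 4.73 CPM in Lip CD11b low libraries, against 0, 1.74 and 0 CPM in Lip WT libraries, a ratio of 6.52 (2.01 to 33.5). Of 4 neutrophil markers tested, Cxcr2, Csf3r and Mmp8 were lower, and the whole list summed to 62.6 to 113 CPM in Lip CD11b low libraries, against 202 to 220 CPM in Lip WT libraries. S100a9, Ngp, Camp, Ltf, Mpo, Elane and Ly6g were at 0 in Lip WT, but only Ngp, Mpo and Ly6g in every Lip CD11b low library. Without the low-count filter 8 markers were tested, 1 higher and 3 lower. Their median log2 fold change was then 0.66, against -2.41 for the 4. All 4 erythroid markers tested, hemoglobin genes with near-identical copies, were higher, with a list sum of 35.4 to 74.4 CPM in Lip CD11b low libraries, against 2.03 to 3.47 CPM in Lip WT libraries, and without Lip CD11b low replicate 3 or 4 only 1 of them passed the low-count filter. At these Lip WT levels a gene could pass that filter only through the Lip CD11b low libraries. The direction of the 4 was thus fixed by the filter, and their count is no result. Of the epithelial markers tested, Epcam rose (3.95 ± 0.27) and Cdh1 fell (-1.16 ± 0.24), with a list sum of 102 to 196 CPM in Lip CD11b low libraries, against 39.5 to 43.2 CPM in Lip WT libraries; the surfactant proteins Sftpb and Sftpd, the secretoglobin Scgb3a2 and Cldn18 were at 0 in Lip CD11b low. Cd4 was the only lymphocyte marker tested and rose (ratio 80.7, 22.1 to 670), with a list sum of 33.3 to 39.5 CPM in Lip CD11b low libraries, against 0 to 2.31 CPM in Lip WT libraries, and Cd3g, Cd79a, Cd79b and Ncr1 were at 0 in Lip CD11b low. With 2 counts in the whole Lip WT group, Cd4 too passed the filter only through Lip CD11b low libraries. Of the dendritic cell markers Batf3 rose (0.76 ± 0.25, adjusted p = 0.0216), a call lost without Lip CD11b low replicate 3, without Lip WT replicate 1 or 3, with DESeq2 and in the fit of 3 Lip groups (adjusted p = 0.0747 to 0.101), with sums of 21.4 to 65.8 CPM in Lip CD11b low libraries, against 46.6 to 52.1 CPM in Lip WT libraries. Vwf of the stromal and endothelial list rose by 0.83 on the log2 scale, with sums of 122 to 189 CPM in Lip CD11b low libraries, against 80.4 to 93.2 CPM in Lip WT libraries and the collagen Col1a1 at 0 in both. No marker of eosinophils, mast cells or basophils was tested, and that list summed to at most 0.824 CPM in any Lip CD11b low library. The part of these cells in the other results was not tested.

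The question of whether an allele that keeps LIP acts like the loss of C/EBPβ was addressed by testing the difference of 2 effects: Lip CD11b low over Lip WT minus Cebpb KO CD11b low over Cebpb WT. Of 9281 genes tested, 446 (4.81%) differed, 276 with the Lip effect higher (2.97%) and 170 with it lower (1.83%). Cebpb, removed only by the null allele, differed by 5.11. The 2 contrasts share no library, and each has its own wild-type controls, so allele and set of libraries cannot be told apart in this difference. Of 1095 genes higher in Lip CD11b low cells that could be tested in the knockout contrast, 385 (35.2%) were also higher there, which is 54.6% of its 705 higher genes, and 29 were lower; in that contrast 17.2% of tested genes were called, 9.16% higher and 8.08% lower. Of 935 genes lower in Lip CD11b low cells, 300 (32.1%) were also lower in the knockout, 48.2% of its 622, and 23 were higher.

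Pparg was among those lower in both contrasts: it had 95.6, 61.5, 75.1 and 63.6 CPM in Cebpb KO CD11b low libraries, against 367, 246, 169 and 191 CPM in Cebpb WT libraries (-1.69 ± 0.24), and the difference of effects was 0.50 ± 0.29 (adjusted p = 0.395). Krt79, Ear1 and Cidec likewise fell in both, with adjusted p for the difference of 0.101, 0.856 and 0.759, none of which passed the test. For Krt79 the difference was called with the replicate block (2.10, adjusted p = 0.0175). It was also called without Cebpb KO CD11b low replicate 2 (2.76, adjusted p = 2.37e-05), so a smaller fall of Krt79 with the Lip allele is not excluded. Cd74 rose in both, by 5.95 ± 0.16 with the Lip allele and 4.34 ± 0.33 with the null allele, and Mfge8 by 7.35 ± 0.17 and 4.63 ± 0.47. The Lip effect was larger for each, by 1.62 ± 0.42 (adjusted p = 0.0333) and 2.69 ± 0.63 (adjusted p = 0.0213), calls that single left-out libraries removed.

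Several genes moved in opposite directions. Flt1, lower in Lip CD11b low cells, had 316, 210.0, 336 and 167 CPM in Cebpb KO CD11b low libraries, against 6.68, 17.3, 60.3 and 46.5 CPM in Cebpb WT libraries (2.89 ± 0.45), a difference of effects of -7.77 ± 0.58 (adjusted p = 6.74e-07). Cxcr2 had 205, 71.7, 161 and 152 CPM in Cebpb KO CD11b low libraries, against 2.67, 11.9, 18.7 and 14.5 CPM in Cebpb WT libraries (3.53 ± 0.36), a difference of -7.90 ± 0.68 (adjusted p = 1.15e-07). Pltp had 887, 1152, 620.1 and 613 CPM in Cebpb KO CD11b low libraries, against 294, 239, 326 and 373 CPM in Cebpb WT libraries (1.42 ± 0.23), a difference of -3.07 ± 0.27 (adjusted p = 5.7e-09). All 3 were higher in Cebpb KO CD11b low than in Cebpb WT and lower in Lip CD11b low than in Lip WT. The 2 sets of controls differed for Flt1, which had 276 to 343 CPM in Lip WT libraries and 6.68 to 60.3 CPM in Cebpb WT libraries, and the knockout libraries lay near the level of Lip WT. The controls of Cxcr2 differed too: its Lip WT mean was at least 20 CPM by the naming rule, against 2.67 to 18.7 CPM in Cebpb WT libraries. Lipf, a lipase, rose by 2.11 with the Lip allele and changed by -4.73 with the null allele, a difference of 6.80 ± 0.65 (adjusted p = 5.92e-08), and Car4, at 11.9, 66.6, 15.5 and 7.48 CPM in Cebpb KO CD11b low libraries, against 220.3, 633, 541 and 475 CPM in Cebpb WT libraries, differed by 4.84 ± 0.67 (adjusted p = 0.000692).

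Effects on lipid and cholesterol genes also differed between the 2 contrasts. Apoe rose to 24727, 24344, 21216 and 22612 CPM in Cebpb KO CD11b low libraries, against 1226, 1246, 1456 and 1347 CPM in Cebpb WT libraries (4.14 ± 0.19), and the difference of effects was -5.13 ± 0.68 (adjusted p = 0.000603). Its control levels also differed, at 114 to 179 CPM in Lip WT libraries and 1226 to 1456 CPM in Cebpb WT libraries. Apoc1, at 107, 142, 154 and 69.8 CPM in Cebpb KO CD11b low libraries, against 68.1, 74.3, 127 and 134 CPM in Cebpb WT libraries, differed by -4.84 ± 0.51 (adjusted p = 3.21e-07), Acaa1b by -4.38 ± 0.39 and the LXRα gene Nr1h3 by -1.84 ± 0.30. Of the 21 cholesterol synthesis genes tested, the Lip effect was higher for 11 and lower for 0, against 2.97% of all genes with a higher Lip effect; 11 of the 17 tested in the knockout contrast were lower there. The largest of these differences belonged to Fdps at 2.83, Sqle at 2.39 and Sc5d at 2.05 on the log2 scale, all enzymes of the mevalonate and sterol pathway. Of the 27 identity genes the Lip effect was higher for 10 and lower for 2, including Siglecf, lower in both contrasts and less so with the Lip allele (1.26 ± 0.27, adjusted p = 0.00341). Slc7a11 (3.90 ± 0.59), Msr1 (2.36 ± 0.29) and Ctss (1.78 ± 0.30) were also higher in the Lip effect, the last with a knockout effect of -0.01 ± 0.24.

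**Figure D3:**
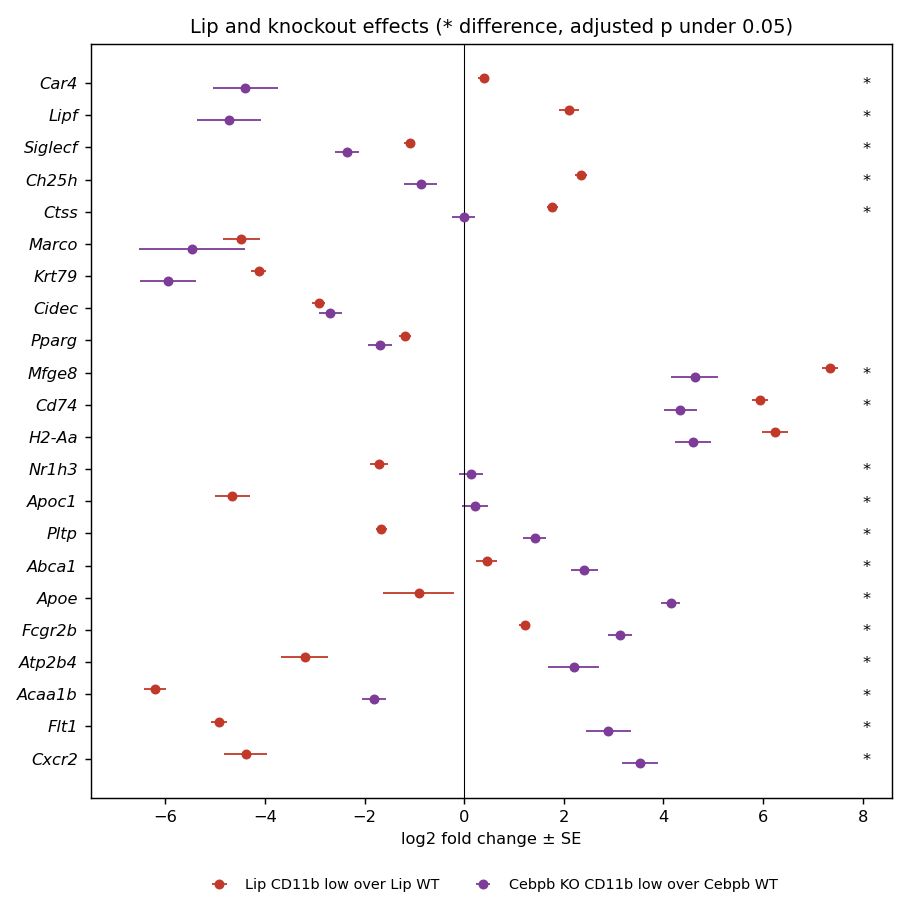
Log2 fold change ± SE of Lip CD11b low over Lip WT and of Cebpb KO CD11b low over Cebpb WT for 22 genes, with an asterisk where the difference of the 2 effects was called. Flt1, Cxcr2 and Pltp lie on opposite sides of 0 in the 2 contrasts, whereas Pparg, Krt79 and Cidec lie below 0 in both.

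Within the Lip mutants, CD11b low cells differed from CD11b high cells at 1614 of 8347 genes tested (19.3%), 773 higher (9.26%) and 841 lower (10.1%) in the CD11b low cells. These libraries share the CD11b low group with the main comparison. Itgam, the gene of the gated protein, had 3.3, 3.02, 5.59 and 4.73 CPM in Lip CD11b low libraries, against 13.7, 22.1, 13.1 and 16.9 CPM in Lip CD11b high libraries (-1.92 ± 0.32, adjusted p = 2.23e-05). Of the 27 alveolar macrophage identity genes, 21 were higher in CD11b low cells and 1 lower. Ear1 had 33.8, 45.3, 39.7 and 27.5 CPM in Lip CD11b low libraries, against 5.15, 3.84, 8.48 and 2.42 CPM in Lip CD11b high libraries (2.80 ± 0.29, adjusted p = 1.17e-09), and Pparg had 124, 104, 126 and 110.0 CPM in Lip CD11b low libraries, against 48.9, 50.9, 48.5 and 54.1 CPM in Lip CD11b high libraries (1.18 ± 0.12, adjusted p = 2.24e-09). CD11b low cells lay between Lip WT and Lip CD11b high cells for both genes.

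The genes most below their level in CD11b high cells included markers of other macrophages. Mgl2, a lectin of interstitial macrophages and dendritic cells, had 7.42, 1.51, 2.48 and 12.9 CPM in Lip CD11b low libraries, against 408, 278, 249 and 323 CPM in Lip CD11b high libraries (-5.52 ± 0.40, adjusted p = 8.66e-05). C1qa had 24.7, 22.7, 29.2 and 63.2 CPM in Lip CD11b low libraries, against 486, 740.0, 365 and 829.6 CPM in Lip CD11b high libraries (-4.03 ± 0.44, adjusted p = 0.00108), and Ccl17 differed by -2.33 ± 0.15. Ckb, a creatine kinase (-5.04), Tiam1, a Rac activator (-4.84), Rnase2a (-4.10) and Itgb7, an integrin chain (-4.09), were also lower. On the other side, Fpr1, a formyl peptide receptor, had 56, 68, 56.5 and 34.4 CPM in Lip CD11b low libraries, against 3.43, 8.64, 12.3 and 1.61 CPM in Lip CD11b high libraries (2.97 ± 0.39, adjusted p = 0.000123), with Cpne5 (2.82), Wfdc10 (2.58) and Mcam (2.56) next. Some of the largest rises over Lip WT were shared by the gates. Mfge8 had 1833, 1599, 1983 and 1793 CPM in Lip CD11b low libraries, against 2185, 1860.0, 2106 and 2017 CPM in Lip CD11b high libraries (-0.20 ± 0.09, adjusted p = 0.105). Cyp4a12b was at 104, 76.3, 82.6 and 99.7 CPM in Lip CD11b low libraries and 82.3, 72, 60.9 and 66.2 CPM in Lip CD11b high libraries (0.36 ± 0.13, adjusted p = 0.0516). Over all genes tested between the gates, 9.26% were higher and 10.1% lower. Of the 21 cholesterol synthesis genes, 11 were lower in CD11b low cells and 0 higher, and of 10 MHC class II genes 6 were lower. Of these 6, H2-Ab1, H2-Eb1 and Cd74 lost their calls under 8, 5 and 2 of the alternatives, mostly single left-out libraries, with adjusted p up to 0.110, 0.0727 and 0.0682.

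**Figure D4:**
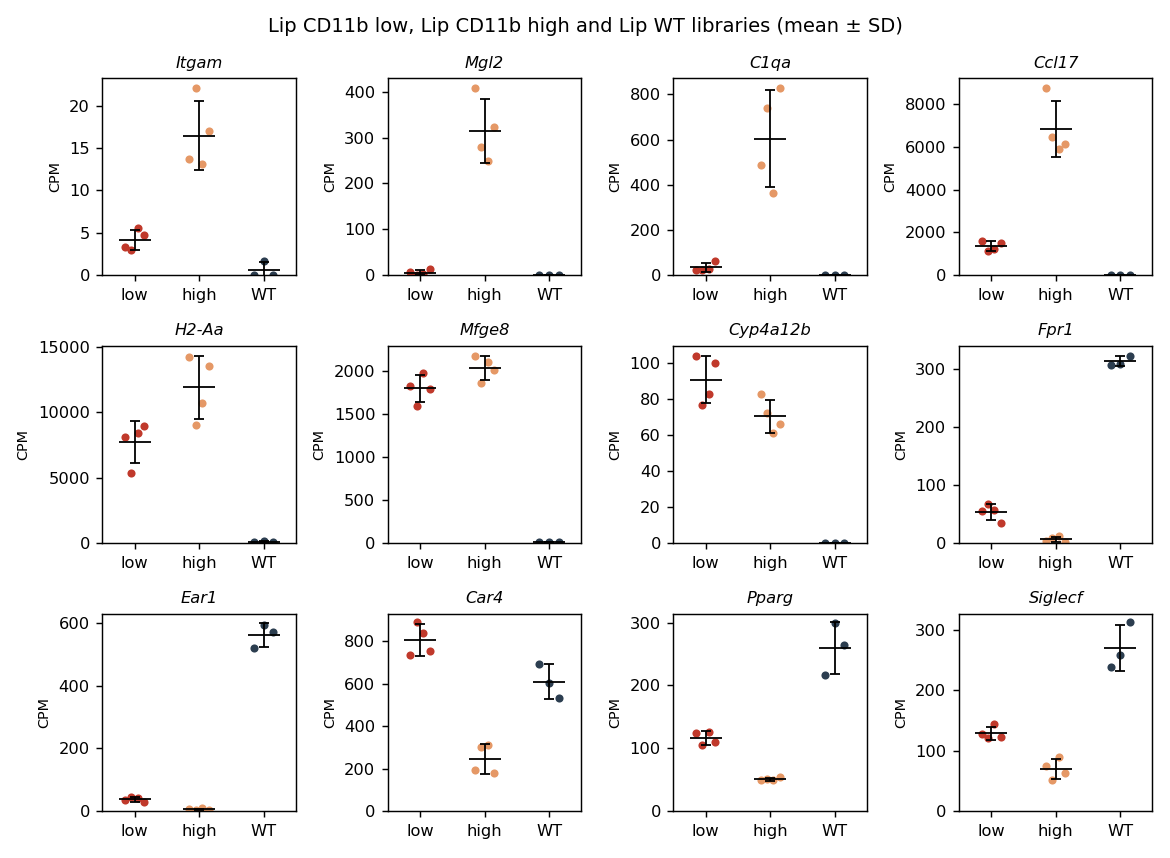
CPM of 12 genes in Lip CD11b low, Lip CD11b high and Lip WT libraries, 1 point a library with mean ± SD. Ear1 and Pparg are lowest in Lip CD11b high cells, C1qa and Mgl2 are highest there, and Mfge8 is far above Lip WT in both gates.

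The unsplit Lip libraries gave a second comparison of the same genotypes with no shared library. Of 9491 genes tested, 469 (4.94%) were called, 294 higher (3.1%) and 175 lower (1.84%) in unsplit Lip than in their Lip WT. Of 1219 genes higher in Lip CD11b low cells that were tested there, 256 (21.0%) were higher, 87.1% of the 294, and 0 were lower. Of 1066 lower genes, 153 (14.4%) were lower, 87.4% of the 175, and 0 were higher. Of 98 named genes fitted in both, 94 had the same sign, and 54 were called in the unsplit set. These genes were named for their changes in the main comparison, so their number and size here are a description. Over all genes higher in Lip CD11b low cells the median log2 fold change in the unsplit set was 0.45, and over all lower ones -0.40, against 0.01 over all genes tested there.

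In that set the controls were not at 0 for the largest rises. Cyp4a12b had 115, 129.5, 192 and 116 CPM in unsplit Lip libraries, against 12.3, 7.71, 7.48 and 10.4 CPM in their Lip WT libraries, where the main set had 0. Mfge8 had 1536, 1034, 1760.0 and 1435 CPM in unsplit Lip libraries, against 149, 143, 81 and 124 CPM in their Lip WT libraries (3.53 ± 0.27), and Cd74 had 10175, 7887, 11042 and 10840.4 CPM in unsplit Lip libraries, against 1195, 1272, 987 and 1201 CPM in their Lip WT libraries (3.09 ± 0.24). Across the 10 largest rises the Lip WT mean was 4.43% to 10.1% of the mutant mean in the unsplit set, and 0% to 0.639% in the CD11b low set. The source of that level was not tested.

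Several of the largest falls were also called in the unsplit set. Lepr had 1.46, 1.37, 2.71 and 0.215 CPM in unsplit Lip libraries, against 67.8, 75.8, 29.6 and 48.5 CPM in their Lip WT libraries (-5.32 ± 0.48, adjusted p = 1.65e-06), Flt1 changed by -3.74 ± 0.30, Apoc1 by -5.12 ± 0.36 and Marco by -3.92 ± 0.33. Apoe, dependent on a single library in the main set, was lower here in every unsplit Lip library, at 66.7, 39.4, 19.3 and 25.1 CPM in unsplit Lip libraries, against 178, 139, 162 and 188 CPM in their Lip WT libraries (-2.15 ± 0.32, adjusted p = 0.000327). Pparg, at 81.8, 97.7, 99.8 and 155 CPM in unsplit Lip libraries, against 169, 222, 229 and 123 CPM in their Lip WT libraries (-0.78 ± 0.25, adjusted p = 0.104), did not pass the test. Of 37 cell-cycle genes tested in this set 1 was lower, against 1.84% of all genes, and Mki67 changed by -0.66 ± 0.51 (adjusted p = 0.681), and whether the 2 sets differ was not tested.

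**Figure D5:**
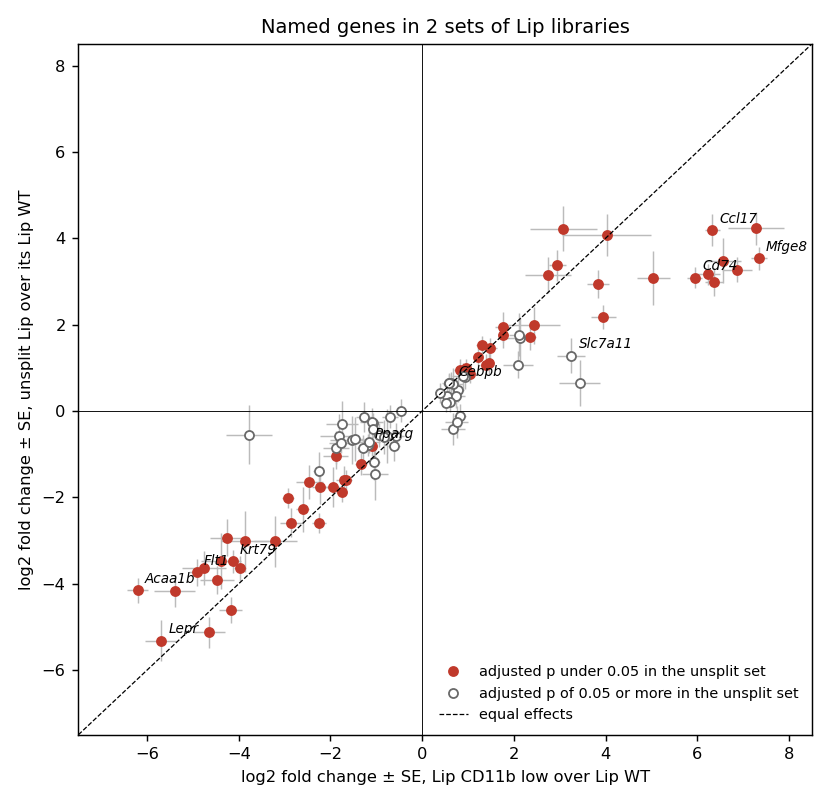
Log2 fold change ± SE of 98 named genes in Lip CD11b low over Lip WT (x axis) and in unsplit Lip over its own Lip WT (y axis), with the line of equal effects. The sign is the same for 94 genes; the genes were named for their changes in the main comparison, so smaller values in the unsplit set are no test of a difference between the sets.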

How the data were processed

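RNA was made into libraries by MARS-seq, a 3′ polyadenylated-end method in which samples are pooled before amplification, per the labels' protocols. The authors deposited whole-number counts per gene, and STAR 2.6.1a, featureCounts 1.6.3 and the build GRCm38 are among the entries of the submitters' processing notes. No source used here says if molecular identifiers were collapsed. C/EBPβ peaks were deposited per ChIP sample, with the authors' fold enrichment (a ratio), score, and −log10 p and q per peak; BWA 0.7.17 and MACS2 2.2.7.1 appear in the same notes.

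Counts of 22050 genes were filtered (filterByExpr, minimum count 10), scaled by TMM and tested with edgeR 4.0.16 (R 4.3.3) by the robust quasi-likelihood test with Benjamini-Hochberg adjustment over all genes tested, at 0.05. Each 2-group comparison used its own libraries; the difference of effects used the 4 groups in 1 fit. Fold changes are log2 with SE. Genes at 0 counts in a group are given against 3 counts over the group, and intervals are exact 95% counting intervals. Scripts were tested on simulated data. The members and gene lists were chosen with earlier results of these data known. By rule the text names the 10 most raised and 10 most lowered called genes, provided that a group mean reached 20 CPM and the groups were disjoint, up to 4 called members of each list, and a fixed panel, with the 5 largest differences each way in the other comparisons; genes named outside this rule were chosen after their values were seen. Predicted, mitochondrial and Y-linked genes were left out of the naming. Promoters were RefSeq windows (GRCm38.p6), and a peak was counted at 1 base of overlap. Alternatives were RLE scaling, DESeq2 1.42.0, no filter, a replicate block, 3 Lip groups fitted together and leaving out each library. Replicates of a group differed by more than sampling noise, so none was merged.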

Additional observations from a re-analysis of the deposited data

Results flagged for a closer look

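Within the 4 Lip CD11b low libraries, a single library stood apart from the others by Dixon's test for 7 genes. The highest library had 125 CPM for Pitx1, 63.2 CPM for C1qa and 2.15 CPM for Atp2b4, a calcium pump. The lowest library had 29.7 CPM for Stat5a, a transducer of GM-CSF signals, 266.8 CPM for Eno1, a glycolytic enzyme, 1774 CPM for Cox4i1, a subunit of cytochrome oxidase, and 106 CPM for Cebpa. Chance gives such a flag for about 1 in 20 groups. The test was run on most of the named genes, of which 122 were tested against Lip WT. Several flags are thus what chance gives, and the 7 genes are listed as a description only.

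The effect of the Lip allele differed from that of the null allele, by the test of the difference on the log2 scale, for 18 genes of the fixed panel or with the largest differences. It was higher for Ear6 (8.77), Cyp4a12b (8.63), Vcam1 (6.98), Lipf (6.80), the polarity protein Pard3b (6.66), Car4 (4.84), Mfge8 (2.69), Cd74 (1.62) and Siglecf (1.26). It was lower for Cxcr2 (-7.90), Flt1 (-7.77), Atp2b4 (-5.41), Apoe (-5.13), the calcium channel gene Cacna1a (-5.02), Acaa1b (-4.38), Lepr (-2.55), Abca1 (-1.97) and Fabp4 (-1.67). Cyp4a12b is at 0 in Lip WT and Vcam1 near 0, and Ear6 has 1 count in the whole Cebpb KO CD11b low group, against 72 in Cebpb WT, so the sizes of these fitted differences depend on the prior count.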

How the results depend on the processing

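No named gene called in the main run or in an alternative changed sign between the 2. Sign changes of genes called in neither were not recorded. The number of genes called between Lip CD11b low and Lip WT was 2316 with RLE scaling, 1674 with DESeq2, 2574 without a filter, 1968 with the replicate block and 2305 with 3 Lip groups fitted together, and 1740 to 2351 with 1 library left out (928 to 1262 higher, 804 to 1089 lower). Of 122 named genes, 16 changed their call under some alternative. Same-numbered libraries of the 2 groups did not deviate together (r = -0.0557, -0.0624 and -0.0417). No label links them beyond the number, and shared handling was not tested. The replicate block gave 319 genes for the difference of effects, 2085 for CD11b low against high and 414 for the unsplit set; in the Lip gates each library correlated best with its own number (r = 0.181, 0.0969, 0.129 and 0.235), a hint from the data and not from the design.

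The difference of effects gave 304 to 528 genes with 1 library left out (199 to 316 higher, 105 to 212 lower, the 105 without Lip WT replicate 3), and 540 with DESeq2. In it the calls of Fabp4, Cd74, Lepr, Mfge8, Cyp4a12b and Vcam1 were lost without single libraries, with adjusted p up to 0.101 for Fabp4, 0.103 for Cd74, 0.385 for Lepr, 0.0774 for Mfge8, 1 for Cyp4a12b and 0.0501 for Vcam1. CD11b low against high gave 1301 to 1602 genes with 1 library left out, and the unsplit set 325 to 535 (112 to 211 lower, the 112 without unsplit Lip replicate 1). Abca1 was called without Lip CD11b low replicate 4 (0.65, adjusted p = 0.0192) and with the replicate block (0.66, adjusted p = 0.0126). Between the Lip gates, the replicate block called Mfge8 (-0.20, adjusted p = 0.028) and Cyp4a12b (0.36, adjusted p = 0.0157), and Cyp4a12b also with RLE scaling, without a filter and without 3 single libraries. In the interferon-response list the replicate block called 4 genes lower. The causes were not tested.

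Shares of genes near a C/EBPβ region moved with the definition, for higher, lower and all tested genes: 81.6%, 84.5% and 78.8% with a peak in either sample, 57.5%, 65.3% and 53.3% within 2 kb, 88.0%, 88.2% and 83.5% within 50 kb, and 51.3%, 61.7% and 47.4% with −log10 q of at least 10. The share of lower genes was above that of higher genes in each of these 4 settings, by less than 1 percentage point within 50 kb. Depth of 951092 to 2462246 counts limits genes near 1 CPM.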

Other observations

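The interferon-response list was high in replicate 4 of both Lip gates. Its summed level was 1264 CPM in Lip CD11b low replicate 4 and 1215 CPM in Lip CD11b high replicate 4, while the other 3 Lip CD11b low libraries held 437 to 460 CPM. Lip CD11b low replicate 4 was also the highest of its group for Apoe and C1qa. No label ties these libraries to an animal.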
